A study of Mus musculus with 9 samples.

Results

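The NR4A nuclear receptor genes, the EGR zinc-finger genes and a few companions form a small panel of immediate early genes, whose transcripts were followed here across long-term haematopoietic stem cells (LT-HSCs) of aged and young mice. The 10 members were taken by name: Nr4a1, Nr4a2, Nr4a3, Egr1, Egr2, Egr3, Ier2, Ier3, Dusp1 and Zfp36. All 10 were found among the 21939 genes of the count table, and 9 of them were among the 15127 genes with enough counts to be tested; Egr2 was not. The study sequenced RNA of C57BL/6 LT-HSCs, sorted as Lin- Sca1+ cKit+ CD34- Flt3- bone marrow cells, to ask what inhibition of the small GTPase RhoA does to aged stem cells. The aged+Ri group came from mice over 80 weeks old, and its cells were kept with the RhoA inhibitor Rhosin at 100 µM. The aged group came from mice of the same age and had no inhibitor. The young group came from mice of 10 to 16 weeks and had no inhibitor. Each group had 3 libraries, and the cells of all 3 groups shared an incubation of 16 h at 37 °C with 10% serum, 3% oxygen and 5% carbon dioxide before lysis. The labels name no vehicle and do not say how many mice a library holds, so p-values measure the spread between these libraries, which may in part be technical.

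Immediate early genes are transcribed within minutes of a stimulus without new protein synthesis, because the factors that switch them on, among them CREB, SRF and the ternary complex factors, are already bound or waiting in the cell. Their transcripts are short-lived, and several of their products, such as the phosphatase DUSP1 and the mRNA-destabilising protein ZFP36, shut the same signals off again. In haematopoietic stem cells NR4A receptors and EGR1 are known from mouse genetics as genes tied to quiescence and restraint of proliferation, and serum, cell isolation and mechanical handling are all known inducers of the panel.

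The promoter sequences of the 3 NR4A genes and of Dusp1 are printed because these 4 members carry the CRE core TGACG, the shared part of the sites bound by CREB, CREM and ATF factors, 3 or more times near their start. Each window runs from 250 bases before the annotated start to 50 after it, from RefSeq on GRCm38.p6, and capitals mark TGACG on either strand, so that the opposite strand reads CGTCA. The windows are chr15:101266596-101266895 on the plus strand for Nr4a1, chr2:57123954-57124253 on the minus strand for Nr4a2, chr4:48045055-48045354 on the plus strand for Nr4a3 and chr17:26508423-26508722 on the minus strand for Dusp1.
Nr4a1: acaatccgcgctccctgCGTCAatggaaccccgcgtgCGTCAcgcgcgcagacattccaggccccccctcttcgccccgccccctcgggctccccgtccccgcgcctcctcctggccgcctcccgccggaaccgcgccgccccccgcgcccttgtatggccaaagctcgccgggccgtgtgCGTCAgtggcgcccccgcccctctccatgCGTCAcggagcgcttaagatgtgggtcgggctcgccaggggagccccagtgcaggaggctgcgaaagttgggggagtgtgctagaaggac
Nr4a2: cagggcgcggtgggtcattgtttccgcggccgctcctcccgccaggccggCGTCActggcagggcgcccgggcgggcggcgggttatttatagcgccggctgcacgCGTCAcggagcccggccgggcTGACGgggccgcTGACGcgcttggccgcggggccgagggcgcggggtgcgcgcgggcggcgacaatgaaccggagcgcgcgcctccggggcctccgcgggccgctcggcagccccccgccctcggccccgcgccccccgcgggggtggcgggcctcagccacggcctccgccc
Nr4a3: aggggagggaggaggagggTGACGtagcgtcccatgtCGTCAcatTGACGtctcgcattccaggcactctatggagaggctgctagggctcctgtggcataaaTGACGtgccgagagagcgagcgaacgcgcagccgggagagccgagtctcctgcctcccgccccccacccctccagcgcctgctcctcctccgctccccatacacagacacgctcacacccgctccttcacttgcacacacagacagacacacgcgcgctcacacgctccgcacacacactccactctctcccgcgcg
Dusp1: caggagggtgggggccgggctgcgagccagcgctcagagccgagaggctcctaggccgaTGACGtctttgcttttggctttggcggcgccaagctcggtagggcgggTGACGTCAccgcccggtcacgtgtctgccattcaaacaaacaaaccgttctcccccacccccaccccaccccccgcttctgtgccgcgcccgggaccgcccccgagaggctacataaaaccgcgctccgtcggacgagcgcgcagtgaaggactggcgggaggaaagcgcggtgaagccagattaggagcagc
The core occurs 4 times in each NR4A window and 3 times in that of Dusp1, where the full palindrome TGACGTCA, 143 bases before the start, supplies an overlapping core on each strand. Of 32851 promoter windows of the same length, 20.8% hold the core at least once, 1.03% hold it 3 or more times and 1.79% hold the full palindrome; a gene can have several windows. The Nr4a1 window lies inside the gene span that the GENCODE annotation gives (chr15:101254269-101274795). The EGR site GCGNGGGCG, searched on both strands and present in 5.55% of windows, occurs once in the windows of Nr4a1, Nr4a2 and Zfp36, at 60, 74 and 105 bases before the start. A CArG box, the site bound by SRF, is present in 1.63% of windows and in that of Zfp36, 58 bases before its start, and in 4 of the 5 windows of Egr2. Some of the Egr2 windows overlap, so the same box is counted in several of them. RefSeq windows were matched for 7 of the 10 members, all but Egr1, Egr3 and Ier2. A match describes letters in a window and was not tested against binding.

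Library totals were between 34358101 and 72503142 counts, so that 3 counts in 1 library corresponded to between 0.041 and 0.0855 CPM (the count scaled to library size, after TMM). The 14 LT-HSC markers were detected in every group, with summed levels of 1439 to 2622 CPM in aged+Ri, 2315 to 3164 CPM in aged and 2095 to 3781 CPM in young libraries. A count was found for 15117 to 16333 genes in aged+Ri, 15024 to 17987 in aged and 20129 to 21213 in young libraries. Mitochondrially encoded genes took 1.57% to 2.56% of counts in aged+Ri, 2.57% to 3.54% in aged and 4.14% to 4.68% in young libraries. Of the genes gated against, Cd34 averaged 22.6 CPM in aged+Ri, 54.2 CPM in aged and 63.4 CPM in young libraries, and Flt3 0.351, 3.76 and 8.54 CPM in the same groups. Myeloid markers summed to 72.66 to 122.9 CPM in aged+Ri, 483.1 to 10720 CPM in aged and 1130 to 3931 CPM in young libraries. Markers of mature T, NK and B cells summed to 71.19 to 137.9 CPM in aged+Ri, 163.1 to 793.5 CPM in aged and 250 to 13540 CPM in young libraries; the highest sum, in young 1, was almost wholly the immunoglobulin gene Iglc2, at 13370 CPM. Mast cell and basophil markers summed to 0 to 5.337 CPM in aged+Ri libraries, where Prss34, Gzmb, Cma1 and Tpsb2 were at 0, 23.07 to 274.2 CPM in aged libraries and 2.984 to 102.2 CPM in young libraries. Erythroid and megakaryocyte markers summed to 843 to 1583 CPM in aged+Ri, 139.9 to 479.3 CPM in aged and 218.3 to 917.4 CPM in young libraries. Most of the aged+Ri sums came from the globin genes Hba-a1 and Hba-a2, which averaged 649.3 and 443 CPM there. The megakaryocyte gene Pf4 averaged 55.9 CPM in aged+Ri and 301.1 CPM in aged libraries. Of the 10 tested markers of this list, 5 had a positive and 5 a negative change in aged+Ri against aged. Counts of the Y-linked gene Ddx3y were 2577 in young 2 and 6400.5 in young 3 and at most 1 in every other library. The part of these differences in the results that follow was not tested, and in bulk RNA fewer cells of a type and less RNA per cell cannot be told apart.

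Nr4a1, which encodes the orphan nuclear receptor NUR77, had the largest positive difference of the members between aged+Ri and aged cells, and it was lowest in aged cells. The aged+Ri libraries 1, 2 and 3 had 68.2, 11.1 and 27.65 CPM, the aged libraries had 3.47, 1.43 and 3.24 CPM, and the young libraries had 6.55, 12.6 and 13.9 CPM. Every aged+Ri library lay above every aged library, and every aged library lay below every young library, while aged+Ri and young overlapped because aged+Ri 2 was inside the young range. The level averaged 35.7 ± 29.4 CPM in aged+Ri, 2.71 ± 1.12 CPM in aged and 11.01 ± 3.91 CPM in young (SD, n = 3 each). The change in aged+Ri against aged was log2 3.71 ± 0.82 (SE), rank 36 of 15127 genes by p-value, but it did not pass over all genes (edgeR quasi-likelihood test, unadjusted p = 0.000544, Benjamini-Hochberg adjusted p = 0.228). DESeq2 gave log2 3.75 with an adjusted p = 3.97e-05, and over all alternatives the adjusted p lay between 3.97e-05 and 0.767, the highest without aged+Ri 1, where the change was log2 2.86. Within sequencing batches the difference had the same sign: aged+Ri 1 was 4.28 above aged 1 in batch 1, and the mean of aged+Ri 2 and 3 was 3.58 above aged 2 in batch 2, in log2 CPM with a prior count of 2. Between aged and young, Nr4a1 had a log2 change of -2.02 ± 0.77 (edgeR unadjusted p = 0.0203, adjusted p = 0.244), with differences of -3.11 in batch 2 and -2.08 in batch 3. Against young, aged+Ri was at log2 1.70 ± 0.76 (edgeR adjusted p = 0.2), and the difference was 0.47 within batch 2, between aged+Ri 2 and 3 and young 2.

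**Figure D1:**
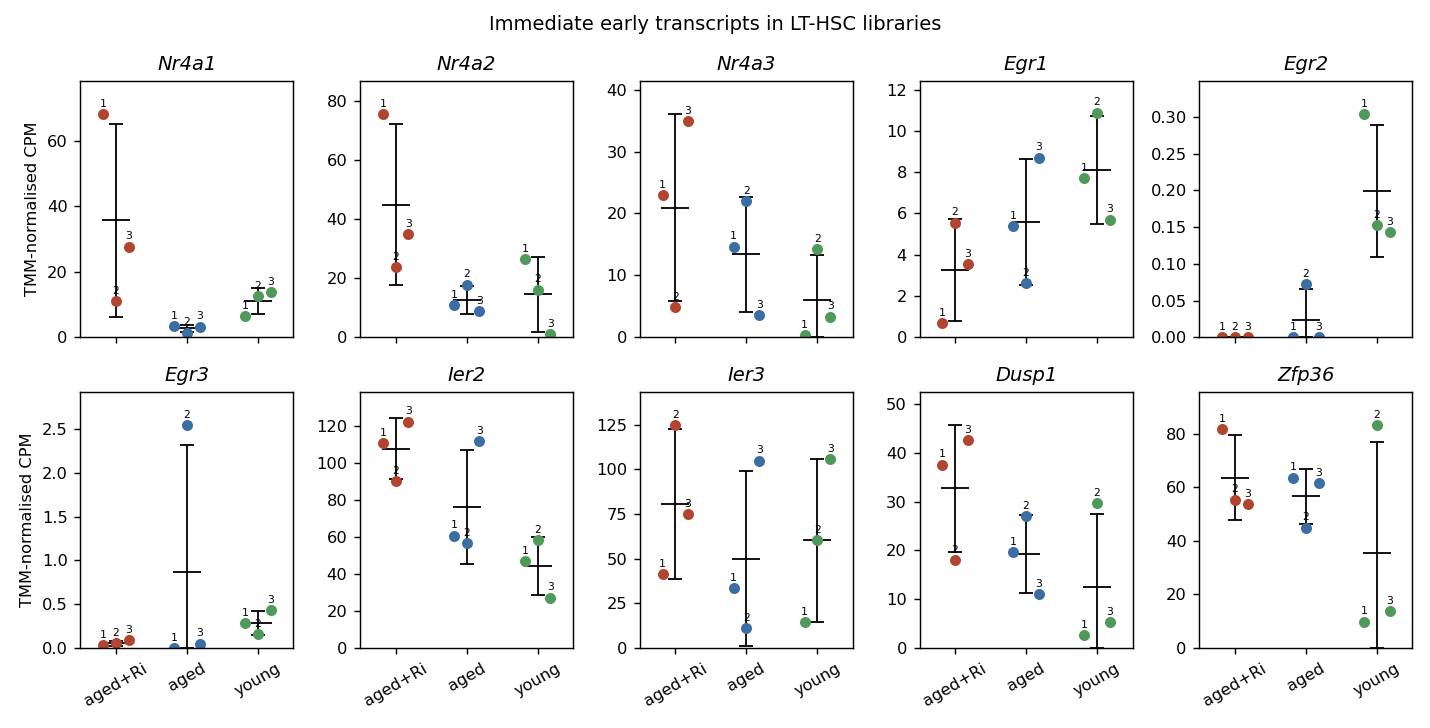
TMM-normalised CPM of the 10 members in each of the 9 libraries; points are libraries, horizontal bars are group means, and the groups run from aged+Ri through aged to young. The Nr4a1 panel shows all 3 aged+Ri libraries (11.1 to 68.2 CPM) above all 3 aged libraries (1.43 to 3.47 CPM). The young libraries run from 0.303 to 14.2 CPM for Nr4a3, 2.63 to 29.7 CPM for Dusp1 and 9.85 to 83.3 CPM for Zfp36.

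Nr4a2, the NURR1 receptor gene (chr2:57106830-57124003, minus strand), had its highest level in the same library as Nr4a1. Its level was 75.6, 23.8 and 35.04 CPM in aged+Ri libraries 1 to 3, 10.75, 17.85 and 8.85 CPM in aged libraries and 26.3, 16.1 and 1.17 CPM in young libraries. All aged+Ri libraries were above all aged libraries, whereas the young libraries reached across both groups. The mean was 44.8 ± 27.2 CPM in aged+Ri, 12.5 ± 4.74 CPM in aged and 14.5 ± 12.7 CPM in young (SD, n = 3 each). The change did not pass in aged+Ri against aged (log2 1.84 ± 0.86, edgeR adjusted p = 0.551), nor in aged+Ri against young (1.62 ± 0.86, 0.269), nor in aged against young (-0.22 ± 0.84, 0.93). The difference between aged+Ri and aged was 2.81 in batch 1 and 0.69 in batch 2. Nr4a3, the NOR1 receptor gene (chr4:48045153-48086447, plus strand), stood at 23.0, 4.91 and 34.9 CPM in aged+Ri libraries, 14.7, 22.0 and 3.545 CPM in aged libraries and 0.303, 14.2 and 3.34 CPM in young libraries. Its 3 groups all overlapped, and its level in young 1 was 46.8 times lower than in young 2. The log2 change was 0.64 ± 1.12 in aged+Ri against aged, 1.17 ± 1.13 in aged against young and 1.81 ± 1.15 in aged+Ri against young (edgeR adjusted p = 0.948, 0.641 and 0.357). Between aged+Ri and aged the sign of Nr4a3 differed by batch, 0.65 in batch 1 and -0.75 in batch 2.

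Egr1, a zinc-finger transcription factor induced through SRF and the ternary complex factors, had its lowest group mean in aged+Ri cells, unlike the NR4A genes. The aged+Ri libraries had 0.674, 5.56 and 3.56 CPM, the aged libraries 5.396, 2.64 and 8.71 CPM, and the young libraries 7.70, 10.9 and 5.70 CPM. Every aged+Ri library was below every young library, the closest pair being aged+Ri 2 and young 3, and the aged libraries overlapped both groups. Means were 3.27 ± 2.46 CPM in aged+Ri, 5.58 ± 3.04 CPM in aged and 8.10 ± 2.62 CPM in young (SD, n = 3 each). None of its changes passed: log2 -0.77 ± 1.03 in aged+Ri against aged, -0.54 ± 1.02 in aged against young and -1.31 ± 1.04 in aged+Ri against young (edgeR adjusted p = 0.915, 0.844 and 0.469). The library with the lowest Egr1 level, aged+Ri 1, was the library with the highest Nr4a1 and Nr4a2 levels. Within batches the difference between aged+Ri and aged was -2.93 in batch 1 and 0.75 in batch 2.

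Egr2 (chr10:67535475-67542188, plus strand) and Egr3 (chr14:70077203-70082614, plus strand), factors of the same family known for roles in lymphocyte activation and anergy, were close to the detection limit in nearly all libraries. Egr2 had 0 counts in all 3 aged+Ri libraries, 0, 4 and 0 counts in aged libraries and 15, 6 and 5 counts in young libraries. Counts of Egr2 were thus found in every young library and in aged 2 alone outside the young group. Its scaled ratio was 0.0994 in aged against young (exact Poisson 95% interval 0.0252 to 0.287) and 0 in aged+Ri against young, with an upper limit of 0.146 by the same interval. Between aged+Ri and aged both totals were too small for a fold. These intervals and floors cover counting error only and not the spread between libraries. Without the low-count filter, Egr2 could be fitted by edgeR, which takes that spread into account. Egr2 did not pass against young in aged (log2 -2.84, adjusted p = 0.228) or in aged+Ri (log2 -6.28, adjusted p = 0.0866). In the same fits a typical gene was lower than in young too, with median log2 changes of -0.57 in aged and -0.86 in aged+Ri. How far the Egr2 counts follow that general shift was not tested. Egr3 had 1, 3 and 3 counts in aged+Ri libraries, 0, 141 and 3 counts in aged libraries and 14, 6 and 15 counts in young libraries. Aged 2 alone, at 2.55 CPM, set the aged mean of Egr3, and apart from it the young libraries were the highest, at 0.153 to 0.428 CPM. Every aged+Ri library was below every young library for Egr3 (log2 -2.34 ± 1.86, edgeR adjusted p = 0.469). The log2 change was -3.92 ± 1.96 in aged+Ri against aged and 1.58 ± 1.76 in aged against young (edgeR adjusted p = 0.586 and 0.698), and without aged 2 these values were 1.17 and -3.51, of the opposite sign. The markers of mature T, NK and B cells summed to 163.1, 653.7 and 793.5 CPM in aged libraries 1 to 3 and to 13540, 250 and 998.1 CPM in young libraries 1 to 3. Iglc2 alone supplied 13370 CPM of the sum in young 1. The part of such cells in the EGR counts was not tested.

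Ier2, which encodes a nuclear protein of the immediate early class (chr8:84661331-84662852, minus strand), was the most even of the members over the 9 libraries. Its level was 110.8, 90.3 and 122.6 CPM in aged+Ri libraries, 60.8, 56.55 and 111.9 CPM in aged libraries and 47.05, 58.2 and 27.2 CPM in young libraries. All aged+Ri libraries were above all young libraries, and the aged group overlapped both through aged 2 and aged 3. Means were 107.9 ± 16.4 CPM in aged+Ri, 76.4 ± 30.8 CPM in aged and 44.1 ± 15.7 CPM in young (SD, n = 3 each). The log2 change in aged+Ri against young was 1.29 ± 0.41 (edgeR unadjusted p = 0.00732, adjusted p = 0.102), and DESeq2 gave 1.23 with an adjusted p = 0.042. Within batch 2 that difference was 0.85. The difference was 0.50 ± 0.40 in aged+Ri against aged and 0.79 ± 0.40 in aged against young (edgeR adjusted p = 0.8 and 0.344), and aged+Ri exceeded aged by 0.87 in batch 1 and 0.89 in batch 2.

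Ier3, which encodes a small protein that modulates ERK signalling and survival (chr17:35821684-35822923, plus strand), differed severalfold between libraries of the same group. It stood at 41.2, 124.9 and 75.1 CPM in aged+Ri libraries, 33.35, 11.2 and 104.9 CPM in aged libraries and 14.6, 60.45 and 105.6 CPM in young libraries. All 3 groups overlapped, with the highest library in aged+Ri and the lowest in aged. The log2 change was 0.69 ± 0.77 in aged+Ri against aged, -0.27 ± 0.76 in aged against young and 0.42 ± 0.77 in aged+Ri against young (edgeR adjusted p = 0.882, 0.901 and 0.781). In batch 2 the aged+Ri libraries exceeded aged 2 by 3.11 in log2 CPM, against 0.31 for the pair of batch 1.

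Dusp1, a nuclear phosphatase that inactivates p38, JNK and ERK kinases, and Zfp36, which encodes tristetraprolin, a protein that binds AU-rich elements and recruits the CCR4-NOT deadenylase, act as brakes on the same signals. Dusp1 had 37.6, 18 and 42.6 CPM in aged+Ri libraries, 19.6, 27.1 and 11.05 CPM in aged libraries and 2.63, 29.7 and 5.28 CPM in young libraries. Zfp36 had 81.9, 55.4 and 53.7 CPM in aged+Ri libraries, 63.7, 44.95 and 61.7 CPM in aged libraries and 9.85, 83.3 and 13.6 CPM in young libraries. For both genes young 1 and young 3 were below every aged+Ri and aged library, and young 2 was within or above them. The log2 change of Dusp1 was 0.77 ± 0.81 in aged+Ri against aged, 0.62 ± 0.81 in aged against young and 1.38 ± 0.82 in aged+Ri against young (edgeR adjusted p = 0.871, 0.751 and 0.323). For Zfp36 it was 0.17 ± 0.66, 0.67 ± 0.66 and 0.84 ± 0.66 in the same comparisons (edgeR adjusted p = 0.982, 0.647 and 0.467). Young 2 decided the values against young: without it Zfp36 was higher in aged+Ri by log2 2.44 (edgeR adjusted p = 0.0346) and Dusp1 by 3.05 (adjusted p = 0.0679). Within batch 2, where young 2 is the young library, the difference between aged+Ri and young was -0.61 for Zfp36 and -0.10 for Dusp1. Dusp1 shares 11 exon bases with Ergic1 on the opposite strand and Zfp36 shares 125 with the uncounted gene model Gm44710. Whether the authors' counting used strand is not given in the sources used here, so those shared bases cannot be assigned.

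**Figure D2:**
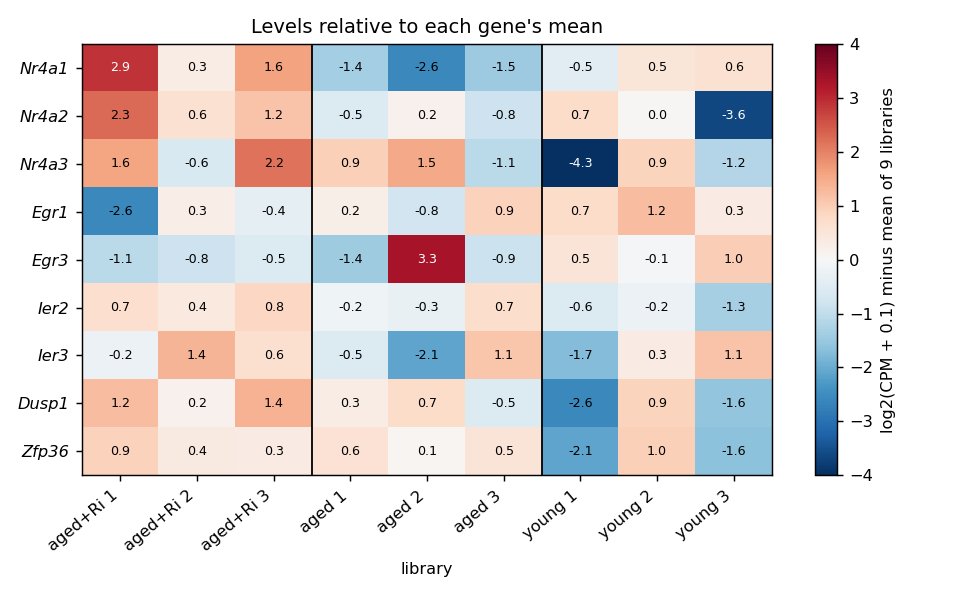
Level of each member in each library as log2(CPM + 0.1) minus the gene's mean over the 9 libraries; libraries run from aged+Ri through aged to young, and numbers in the cells are the plotted values. Young 1 is the lowest library for Nr4a3, Dusp1 and Zfp36, and young 3 for Nr4a2 and Ier2, so no young library is low throughout.

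The members did not move as a block over the libraries. Aged+Ri 1 was the highest library for Nr4a1 and Nr4a2, aged+Ri 2 for Ier3, and aged+Ri 3 for Nr4a3, Ier2 and Dusp1, so that 6 of the 9 tested members peaked in an aged+Ri library. Young 2 held the highest Egr1 and Zfp36 levels, and aged 2 the highest Egr3 level. The spread over the 9 libraries, as the SD of log2 CPM, was 1.95 for Nr4a3, 1.71 for Egr3, 1.60 for Nr4a1, 1.57 for Nr4a2 and 0.67 for Ier2, against a median of 1.12 over all tested genes. Of the members, Dusp1 and Zfp36 had the closest pattern, with a root mean square difference of 0.60 between their centred log2 CPM values. For Nr4a1 the nearest member was Ier3, at 1.55, which was rank 2154 among all tested genes and close to the 1.60 spread of Nr4a1 itself. Over all tested genes the patterns closest to Nr4a1 were those of Olfr592, Tnfrsf23 and Gzmm (0.58, 0.60 and 0.63), and those closest to Dusp1 were Dnajc18, Hivep3 and Pgm2 (0.39, 0.41 and 0.44). Olfr592 (0 to 1.29 CPM) and Gzmm (0.0361 to 2.89 CPM) had low levels over the 9 libraries. Man2a1 was closest to Egr1 (0.33), with Mmut near it (0.47), and the closest to Ier3 were Zfp688, Yars2 and Tbx6 (0.47, 0.53 and 0.55). These likenesses are descriptions over 9 libraries that differ in depth and in genes detected, and no test was made of them.

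Per kilobase of exon, the scale on which levels of different genes can be set side by side, Ier3 and Ier2 were the most abundant members in every group. In aged+Ri libraries Ier3 averaged 71.1 ± 37.2, Ier2 70.9 ± 10.8 and Zfp36 18.3 ± 4.56 CPM per kb (SD, n = 3). Nr4a2, Nr4a1 and Dusp1 followed in aged+Ri at 11 ± 6.71, 10.2 ± 8.37 and 9.89 ± 3.92 CPM per kb, neighbours that did not differ beyond their spread. Nr4a1 took place 5 of 10 by level in aged+Ri, place 8 in aged at 0.773 ± 0.319 CPM per kb and place 6 in young at 3.14 ± 1.11 CPM per kb. Egr1 averaged 0.728 ± 0.548 CPM per kb in aged+Ri, 1.24 ± 0.678 in aged and 1.81 ± 0.584 in young. Egr3 and Egr2 were the lowest members in every group, with Egr3 at 0.0125 ± 0.00645 CPM per kb in aged+Ri, 0.196 ± 0.331 in aged and 0.0653 ± 0.0312 in young.

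Over the panel, 0 of the 9 tested members passed edgeR's adjusted threshold of 0.05 in any of the 3 comparisons, and limma-voom and edgeR's newer quasi-likelihood method called 0 as well. In aged+Ri against aged, 0% of all tested genes passed, 1 member (Nr4a1) had an unadjusted p under 0.05 and was higher, against 4.24% of all genes in that direction, and DESeq2 called the same member as higher, against 0.919% of genes. The groups did not overlap for 2 members, Nr4a1 and Nr4a2, both higher, against 7.87% of all genes. In aged against young, 0.0331% of genes passed; Nr4a1 alone had an unadjusted p under 0.05 and lay below the young group without overlap, against 10.1% and 16.1% of all genes lower, and DESeq2 called 0 members, against 4.92% of genes, with an adjusted p = 0.0508 for Nr4a1. For aged+Ri against young, 1.45% of genes passed; 2 members, Nr4a1 and Ier2, were higher at an unadjusted p under 0.05, against 9.06% of genes, and DESeq2 called 1, Ier2, as higher, against 5.22% of genes. Ier2 lay above young without overlap in that comparison, against 12.4% of genes, and Egr1 and Egr3 below it, against 19.9%. The median log2 change of the 9 tested members was 0.64 in aged+Ri against aged, 0.62 in aged against young and 1.29 in aged+Ri against young, while the median over all tested genes was -0.06, -0.13 and -0.24. Positive changes were seen in 7, 5 and 7 of the 9 members, against 47.2%, 45.3% and 42.6% of all genes. The comparisons share libraries in pairs, so these values are not independent of one another.

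**Figure D3:**
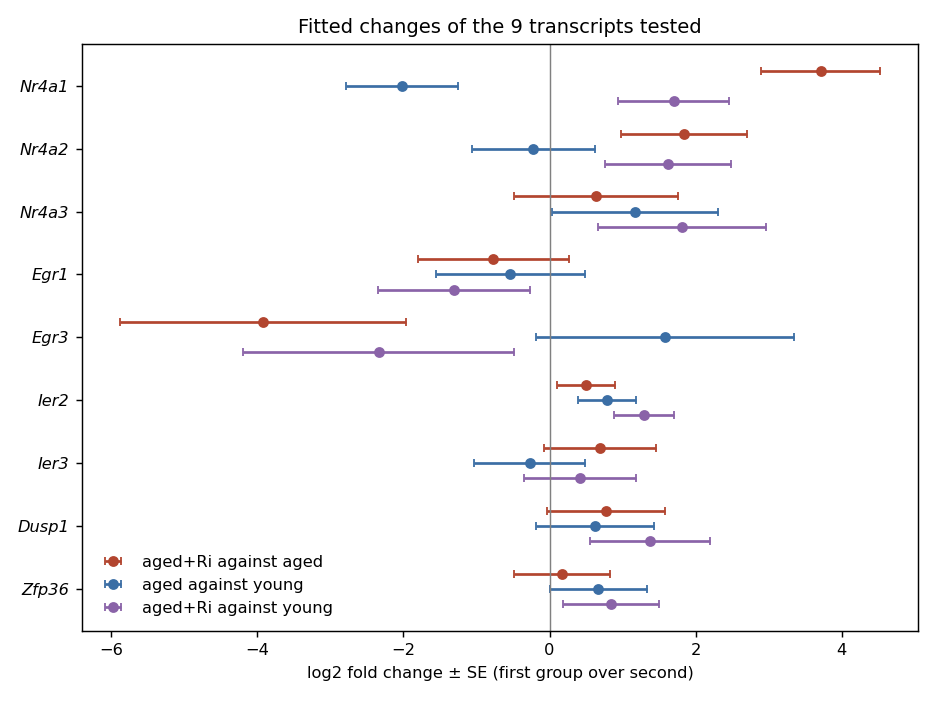
Fitted log2 fold changes of the 9 tested members with SE, first group over second, for aged+Ri against aged, aged against young and aged+Ri against young. Nr4a1 is the farthest above 0 in aged+Ri against aged (3.71 ± 0.82) and the farthest below 0 in aged against young (-2.02 ± 0.77), and no point passed the adjusted threshold.

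Of 29 tested genes for immediate early transcription factors outside the panel, 0 passed in aged+Ri against aged and in aged against young, and 2, Klf4 and Klf6, were called higher in aged+Ri against young, against 0.959% of all genes. Klf4, a zinc-finger factor known for roles in quiescence and pluripotency, had 48.9, 67.15 and 67.9 CPM in aged+Ri libraries, 0, 0.145 and 0.747 CPM in aged libraries and 0.404, 0.306 and 0.399 CPM in young libraries. Klf6, a related factor, had 405, 322.8 and 329.2 CPM in aged+Ri libraries, 119.5, 107 and 130.1 CPM in aged libraries and 95.02, 127.1 and 117.5 CPM in young libraries. Both genes were higher in every aged+Ri library than in any other library, and both had less spread among aged+Ri libraries than Nr4a1. The log2 change in aged+Ri against young was 7.36 ± 1.27 for Klf4 and 1.64 ± 0.28 for Klf6 (edgeR adjusted p = 0.0188 for both), and in aged+Ri against aged it was 7.68 ± 1.28 and 1.57 ± 0.28 (edgeR adjusted p = 0.124 and 0.127). The call against young was lost for Klf4 without aged+Ri 1 (log2 7.48) or aged+Ri 3 (7.23), and for Klf6 without aged+Ri 1 (1.49), aged+Ri 3 (1.63) or young 1 (1.47), with adjusted p of at most 0.0981 for Klf4 and 0.116 for Klf6 among these. The 29 genes had a median log2 change of 0.79 in aged+Ri against aged, 0.07 in aged against young and 0.62 in aged+Ri against young, and 9 of them were higher in aged+Ri against aged at an unadjusted p under 0.05, against 4.24% of all genes. DESeq2 called Klf4 and Klf6 in aged+Ri against aged (adjusted p = 1.02e-10 and 2.62e-06).

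Crem, whose product binds the CRE and includes the inducible repressor ICER, is 1 of 26 kinases and factors that induce immediate early genes. Of the 26, it alone was called higher in aged+Ri against young, against 0.959% of all genes. It had 705.2, 142.6 and 233.7 CPM in aged+Ri libraries, 43.9, 46.9 and 36.9 CPM in aged libraries and 101.5, 27.5 and 46.4 CPM in young libraries. The aged+Ri libraries were above all others. For Crem, Nr4a1 and Nr4a2 the 3 aged+Ri libraries had the same order, highest in aged+Ri 1 and lowest in aged+Ri 2. Plk2 and Procr, described below, had that order too, and the shared order was not tested. The log2 change of Crem was 2.62 ± 0.59 in aged+Ri against young and 3.08 ± 0.60 in aged+Ri against aged (edgeR adjusted p = 0.0456 and 0.151). That call held without aged+Ri 2 or young 1 and was lost when any of the other 7 libraries was left out, with an adjusted p of 0.21 and a log2 change of 1.69 without aged+Ri 1. The 26 genes had a median of -0.50 in aged+Ri against young, and 7 of the 26, Elk3 (37.3 ± 17.5 CPM in aged+Ri and 106.9 ± 6.99 CPM in young) and Mapk14 (35.9 ± 7.45 CPM in aged+Ri and 85.1 ± 5.33 CPM in young) among them, were lower at an unadjusted p under 0.05, against 14.4% of all genes, with none passing (SD, n = 3 each). Elk3 is a ternary complex factor that partners SRF, and Mapk14 is the p38 kinase.

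Of 42 tested genes for other feedback and effector proteins, 0 passed in any comparison, with medians of 0.13 in aged+Ri against aged, -0.60 in aged against young and -0.15 in aged+Ri against young. Plk2, a polo-like kinase, had 192, 13.8 and 108.1 CPM in aged+Ri libraries, 3.74, 1.48 and 13.0 CPM in aged libraries and 6.75, 1.94 and 20.8 CPM in young libraries. The aged+Ri libraries lay above the aged ones, by little for aged+Ri 2, whose low value among aged+Ri libraries was shared with Nr4a1, Nr4a2, Nr4a3 and Crem (log2 4.11 ± 1.13, edgeR adjusted p = 0.346). Ptgs2, the inducible cyclooxygenase gene, averaged 12.0 ± 6.89 CPM in aged+Ri and 0.163 ± 0.16 CPM in aged (SD, n = 3 each; log2 6.17 ± 1.64, edgeR adjusted p = 0.335). Among the 4 tested partners of EGR and NR4A proteins, Nab1, an EGR corepressor, averaged 78.8 ± 15.2 CPM in aged+Ri and 44.7 ± 8.67 CPM in aged without overlap (log2 0.82 ± 0.46, edgeR adjusted p = 0.631), and 0 passed. Of 13 genes of the CCR4-NOT complex and TOB proteins, through which ZFP36 removes poly(A) tails, 0 passed, with medians of -0.19, -0.27 and -0.26 in the same comparisons. Of 11 cytokine genes whose mRNAs ZFP36 is known to bind, 7 were tested and 0 passed. All 7 had a negative change in aged+Ri against aged, with a median of -0.71 and none without overlap. Of all tested genes, 47.2% had a positive change in that comparison. Il6, Csf2, Il1b and Cxcl2 were low, with mean levels of at most 1.55 CPM in these groups. Their log2 changes ran from -2.41 ± 1.97 for Il6 to -0.05 ± 2.25 for Cxcl2. The median of the 7 was 0.85 in aged against young, with 4 of 7 positive, and -0.42 in aged+Ri against young, with 3 of 7 positive. Ccl3, a chemokine gene of that list, averaged 92.1 ± 63.5 CPM in aged+Ri, 254.7 ± 133 CPM in aged and 331.4 ± 163.1 CPM in young (SD, n = 3 each). Ccl4, its neighbour in the chemokine cluster, averaged 303.1 ± 103.9 CPM in aged+Ri, 496.7 ± 258.5 CPM in aged and 1011 ± 329.3 CPM in young (SD, n = 3 each). Myeloid cells are a known source of both chemokines, and the myeloid markers were likewise lowest in aged+Ri libraries; their part in these levels was not tested.

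**Figure D4:**
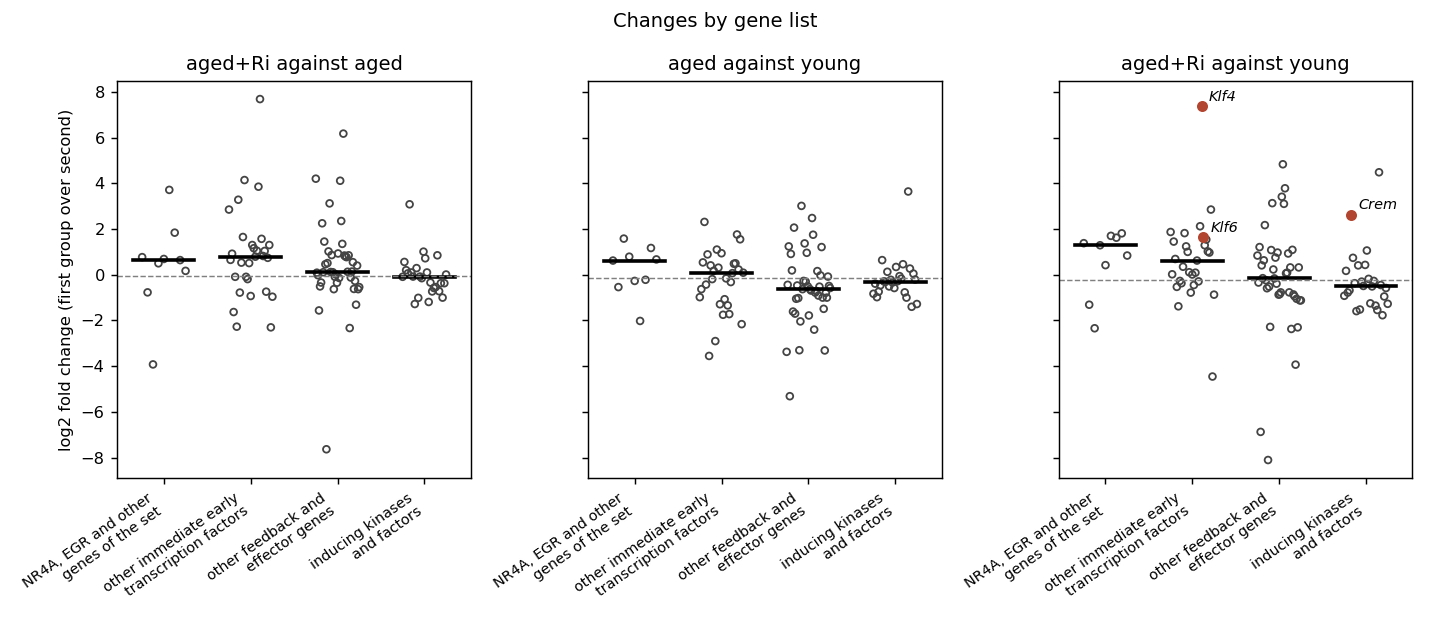
Fitted log2 fold changes of single genes, first group over second, for the members and for the lists of other immediate early transcription factors, other feedback and effector genes, and kinases and factors that induce immediate early genes, in the 3 comparisons; each point is a gene, bars are list medians, and dashed lines are medians over all tested genes. The median of the members was 0.64, 0.62 and 1.29, against -0.06, -0.13 and -0.24 over all tested genes.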

How the data were processed

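The members and gene lists were chosen with earlier results of these data known. Per the labels, cDNA came from SMART-Seq v4 and libraries from Nextera XT, and sequencing batches were as follows: aged+Ri 1 and aged 1 in batch 1, aged+Ri 2 and 3, aged 2 and young 2 in batch 2, aged 3 and young 3 in batch 3, and young 1 in batches 1 and 3. Per the submitters' processing notes, reads went through cutadapt 1.18, STAR 2.7.0, SAMtools 1.14, featureCounts and R 4.2.0 on GRCm38. The deposited table holds estimated counts, of which 71.6% to 80.9% per library were whole within 0.005; these were rounded. Strandedness of counting is not given in the sources used here. No libraries agreed within sampling noise.

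Genes were filtered with filterByExpr (15127 of 21939 kept), scaled by TMM and fitted in 1 quasi-likelihood model of the 3 group means over all 9 libraries with edgeR 4.0.16 in R 4.3.3, with 6 residual degrees of freedom. Tests were two-sided, adjusted by Benjamini-Hochberg over all genes tested, with a threshold of 0.05. Standard errors are the log2 change over the square root of F. Groups that do not overlap are those in which every library of one lies above every library of the other. Within-batch differences and pattern likeness use log2 CPM with a prior count of 2. Coordinates are of GRCm38 from GENCODE, matched by symbol for 21472 genes; promoter windows are RefSeq's. All members are named, with list genes past the threshold and up to 4 of a list with the smallest p; a few genes that these rules select are not reported here. Alternatives were DESeq2 1.42.0 and its size factors, limma-voom (limma 3.58.1), edgeR's newer method, other filters, only the 2 groups compared, replicate block, batch covariate, young 1 alone and each library left out. The model was checked on simulated counts in which 200 genes were changed. At a true change of log2 1, 0% of the changed genes passed in each comparison, and at log2 2 between 12% and 22% passed.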

Additional observations from a re-analysis of the deposited data

How the results depend on the processing

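No member passed edgeR's threshold as first fitted, and 477 of the member results under the alternatives kept their sign and side of the threshold, while 17 turned sign and 7 came to pass. Among list genes called in aged+Ri against young, Klf6, Crem and Procr lost the call with only the 2 groups compared (edgeR adjusted p = 0.0672, 0.0826 and 0.0793), Klf6 and Procr with batch as a covariate (0.0734 and 0.125), and Crem with limma-voom (0.0612), DESeq2 size factors (0.0543) and the stricter filter (0.0504). With young 1 alone Klf4, Crem and Procr lost it too (0.11, 0.201 and 0.063). In aged+Ri against aged, the count of genes called was 0 and became 321 with DESeq2, 55 with limma-voom, 4 with edgeR's newer method, 11 with no filter, 26 with only the 2 groups compared, 16 with batch as a covariate and 0 to 4 without single libraries. In aged against young, 5 became 744, 18, 21, 20 and 1 under the first 5 of these, 292 with young 1 as the only young library (assumed to vary like the other groups) and 2 to 64 without single libraries. In aged+Ri against young, 219 became 1829 with DESeq2, 644 with limma-voom, 425 with the newer method, 51 with only the 2 groups compared, 645 with young 1 alone, and 9 (without aged+Ri 3) to 541 (without young 3). DESeq2 called 1 member against aged (Nr4a1) and 1 in aged+Ri against young (Ier2). With young 1 alone, 1 member (Zfp36) was called in aged against young and 3 (Nr4a3, Dusp1, Zfp36) in aged+Ri against young, where leaving out single libraries gave 0 to 1 (Zfp36, without young 2). The members' median in aged+Ri against aged was 0.27 with the batch covariate and 0.37 to 1.14 without single libraries. It was 1.67 with young 1 alone and 0.12 to 1.04 without single libraries in aged against young, and 0.54 with the batch covariate, 2.48 with young 1 alone and 0.80 to 1.70 without single libraries in aged+Ri against young. Signs turned, with no member past the threshold there, in aged against young for Nr4a2 (0.03 with limma-voom, 0.90 with batch, -0.77 to 0.44 without single libraries), Egr3 (-1.25 with limma-voom, -3.51 to 2.26), Egr1 (0.02 with batch) and Ier3 (1.83 with young 1 alone, -1.38 to 0.41), in aged+Ri against aged for Zfp36 (-0.21 with batch, -0.07 to 0.26) and Egr3 (-4.60 to 1.17), and in aged+Ri against young for Ier3 (-0.08 to 1.10). The causes of these moves were not tested. Libraries with the same replicate number had correlations of their deviations between -0.09 and 0.11, and those with different numbers between -0.14 and 0.15. With 3 libraries per group, these values cannot tell whether the numbers pair the samples. With the replicate number as a block, 2 genes were called in aged+Ri against aged, and in aged against young the changes of Nr4a2 and Egr3 were 0.27 and -0.75.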

Other observations

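Procr, which encodes the endothelial protein C receptor and marks the most primitive stem cells, was the single LT-HSC marker of 14 past the threshold. Procr passed in aged+Ri against young alone, where 0.959% of all tested genes were called higher. It had 409.3, 180.8 and 217.2 CPM in aged+Ri libraries, 144.5, 80.9 and 76.4 CPM in aged libraries and 63.8, 96.2 and 48.0 CPM in young libraries. The log2 change in aged+Ri against young was 1.96 ± 0.42 (edgeR adjusted p = 0.0394), and without single libraries it lay between 1.47 and 2.27 with the call lost in 7 of 9 fits, all but those without aged+Ri 2 or young 2. Another marker of the list had the opposite direction: Kit, the stem cell factor receptor, averaged 192.9 ± 121.2 CPM in aged+Ri, 428.2 ± 20.6 CPM in aged and 523.5 ± 224.7 CPM in young (SD, n = 3 each), and did not pass (edgeR adjusted p = 0.465 for aged+Ri against aged and 0.0991 against young). Of 12 myeloid markers, 2 were called lower in aged+Ri against young, against 74 of all 15127 tested genes. All 12 had a negative change there, with a median log2 of -5.8, and lay below young without overlap, against 19.9% of all genes. The 2 called were Hk3, a hexokinase gene with 0, 0 and 1 counts in aged+Ri libraries, and the surface antigen gene Ly6c2. Ly6c2 averaged 4.27 ± 1.96 CPM in aged+Ri and 88.2 ± 32.7 CPM in young (SD, n = 3 each). The edgeR adjusted p was 0.021 for Hk3 and 0.0456 for Ly6c2. Both calls were lost without any single aged+Ri library, and that of Ly6c2 also without any single young library, while the log2 changes stayed between -12.42 and -9.61 for Hk3 and between -4.63 and -4.02 for Ly6c2.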
